A study of Mus musculus with 6 samples.

Results

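Type I interferon-stimulated antiviral genes were measured in the stroma of tumours grown in wild-type (WT) and Pdia4-/- (KO) mice. The 43 genes were taken by symbol from what is known of the interferon response, but they were chosen with earlier results of these data known. A gene was measured where the array's annotation gave its symbol as the only gene of a probe set. This held for 41 of them, among 18193 genes with such a probe set. Of the 41, 40 could be tested, among 11357 tested genes, because they were detected on at least 3 of the 6 arrays. Isg15 and Ifi44 had no probe set of their own, and Mx2 was called Absent on all 6 arrays, with signals of 16.7 to 154.5. By role the 40 tested genes were 9 sensors, 3 transcription factors, 8 genes of ubiquitin-like conjugation and feedback, and 20 effectors. The sensors are those of foreign or misplaced nucleic acid and Trim21, a cytosolic antibody receptor.

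Each group held 3 male mice, and 1 Affymetrix Mouse430_2 array was run per mouse on total RNA of tissue labelled as cancer stroma. Tumour cells had been placed under the skin of B6 mice 4 weeks earlier; WT mice carried no named allele, and KO mice lacked both copies of Pdia4, the gene of an endoplasmic reticulum enzyme that handles disulphide bonds in folding proteins. The tumour is named in 2 ways, as LLC (a mouse lung carcinoma line) in the growth protocol and as GK1 in the design text, and neither the labels nor the files settle which it was or what genotype the tumour cells had. Nothing in the labels says that the mice were littermates or that the RNA was prepared separately, so p-values measure only the spread between these arrays, whose number limits the precision.

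The arrays differed in ways that touch the results below. The header of KO replicate 3 carried a batch number of its own, and this array stood apart from the rest, with a score of 105 on a first principal component that held 50.6% of the variance, against 11.8 and 12 for the other KO arrays and -51 to -37.1 for WT. The β-actin 3′ to 5′ ratio, which grows as RNA is degraded, was 1.66 to 4.26 in WT and 1.51 to 1.99 in KO. Between 47.0% and 49.2% of probe sets were called Present per array. Pdia4 itself was lower but not absent in KO, with 3942, 2766 and 4104 on the WT arrays and 2324, 1521 and 1402 on the KO arrays (log2 difference -1.06, SE 0.28, limma adjusted p = 0.161). Neither labels nor files say whether its probe set lies within the deleted stretch.

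Type I interferons bind the receptor made of Ifnar1 and Ifnar2, and the kinases Jak1 and Tyk2 then phosphorylate STAT proteins. Stat2 and Irf9 are subunits of the complex ISGF3, which binds the interferon-stimulated response element in the promoters of these genes. In tumours, type I interferon is known for its action on dendritic cells and on the priming of T cells, while interferon gamma, made by T and NK cells, acts on the gamma-activated sequence, and the target genes of both overlap.

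Promoter sequences from RefSeq (assembly GRCm38.p6, 250 bases before to 50 after each start) were matched to 32 of the 43 genes. The genes Zbp1, Dhx58, Rtp4, Ifi27, Oas2, Parp14, Ifi204, Mx2, Usp18, Parp9 and Mx1 were not matched. The response element's core was searched on both strands as GAAA, any 2 bases and GAAA again, and it stood in 14 of the 32 genes (43.8%), against 1079 of all 27025 genes in the table (3.99%). Counted per promoter, these shares were 15 of 40 (37.5%) and 1131 of 32851 (3.44%). The following promoter stretches are shown because they belong to the genes whose values are contrasted below. Each is printed 5′ to 3′ on the gene's strand, with the matches in capitals, and a match on the other strand reads as TTTC, 2 bases and TTTC. Adjacent matches can share bases, so that a run of capitals may hold more than 1 match. In Trim21, whose stretch is not printed, each KO array read above each WT array on the brightest probe set. The same held for Ifit1, Stat2, Oas3 and Ifitm2.
Ifit1 (chr19:34640765-34640833, + strand): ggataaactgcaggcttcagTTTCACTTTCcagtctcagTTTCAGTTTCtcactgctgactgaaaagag
Stat2 (chr10:128270256-128270305, + strand): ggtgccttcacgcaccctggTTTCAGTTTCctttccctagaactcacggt
Oas3 (chr5:120777705-120777754, - strand): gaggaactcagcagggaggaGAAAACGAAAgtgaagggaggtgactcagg
Ifitm2 (chr7:140955978-140956027, - strand): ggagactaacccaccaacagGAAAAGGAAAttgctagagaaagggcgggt
The groups overlapped on the brightest probe set in Oas1a, Ifih1, Ifitm3, Eif2ak2 and Trim30a, whose stretches are not printed. In Rsad2, Ifit3 and Bst2 the groups also overlapped on the brightest probe set.
Rsad2 (chr12:26456543-26456592, - strand): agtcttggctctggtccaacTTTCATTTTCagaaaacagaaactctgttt
Ifit3 (chr19:34583353-34583436, + strand): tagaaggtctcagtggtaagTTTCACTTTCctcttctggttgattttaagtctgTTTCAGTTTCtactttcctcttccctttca
Bst2 (chr8:71537567-71537622, - strand): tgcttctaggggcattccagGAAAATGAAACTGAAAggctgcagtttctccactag

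The gamma-activated sequence, searched as TTCNNNGAA (the same on both strands), stood in 9 of the 32 genes (28.1%), against 2582 of 27025 genes (9.55%). In Ifitm3 and Bst2 it overlapped a response element match. The stretches of Samhd1, Isg20 and Ifit2 are shown because each of these genes read higher on every KO array and held this match but not the other. Adar also did, but its match lies after the start of transcription, and its stretch is not printed.
Samhd1 (chr2:157135303-157135346, - strand): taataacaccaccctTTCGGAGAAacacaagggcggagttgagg
Isg20 (chr7:78913331-78913379, + strand): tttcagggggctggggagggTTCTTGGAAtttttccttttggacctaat
Ifit2 (chr19:34550444-34550481, + strand): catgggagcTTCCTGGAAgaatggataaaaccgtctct
Among tested genes, the 13 whose promoters held a response element match had a median log2 difference of 0.27 between KO and WT, with 3 higher at an unadjusted p under 0.05. The 17 without one had a median of 0.52, with 6 higher at that threshold. For the gamma-activated sequence the medians were 0.23 over 9 genes with a match, 3 of them higher, and 0.49 over 21 genes without one, 6 of them higher. A match is a description of these letters and not a shown binding site, and these differences were not tested.

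As a group the interferon-stimulated genes read moderately higher in KO stroma, and none of them passed the test over all genes. Because they were chosen with earlier results of these data known, the counts below describe the list and do not test it. Of the 40, 36 had a higher mean log2 signal in KO, where 42.1% of all tested genes did, and the median log2 difference was 0.44, where the median of all tested genes was -0.10. The 4 that read lower were Sp100, Eif2ak2, Ifitm3 and Bst2. By limma 0 of 40 were called at an adjusted p under 0.05, the smallest being 0.13 for Zbp1, and over all tested genes 4 were called (0.0352%). At an unadjusted p under 0.05, 14 were higher and 0 lower, against 8.88% higher and 11.8% lower of all tested genes. The same shares are the background of each such count by role or list below. The 14 were Zbp1, Dhx58, Ifi204, Stat2, Parp9, Ifit1, Ifit2, Isg20, Samhd1, Rsad2, Rtp4, Ifitm1, Oasl2 and Lgals3bp. This count was 7 without KO replicate 1, 7 without WT replicate 2, 8 without WT replicate 3 and 9 with no filter on detection. A difference of more than 1.5-fold upward was seen in 13 of the 40 (11.3% of all tested genes). One of more than 2-fold was seen in 3 of the 40, Zbp1, Isg20 and Samhd1, against 504 of all 11357 tested genes.

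On 20 of the 40 genes each KO array read above each WT array, against 12.7% of all tested genes, and on 1, Sp100, each KO array read below, against 20.5%. With 3 arrays against 3, an exact permutation test of a single gene cannot give a p below 0.1. Over the 40 genes, the median distance from the WT mean on the log2 scale was 0.18, -0.08 and -0.06 on WT replicates 1 to 3 and 0.45, 0.33 and 0.46 on KO replicates 1 to 3. The lowest array was WT replicate 2 for 17 genes and WT replicate 3 for another 17. KO replicate 3 was the highest for 17 genes, KO replicate 1 for 13 and KO replicate 2 for 5. KO replicate 3 exceeded the mean of the other KO arrays by over 1.5-fold for 6 genes, Oasl1, Rsad2, Ifih1, Xaf1, Rtp4 and Ifi204, and without it the median log2 difference was 0.38. In bulk stroma, fewer cells of a type and less RNA per cell cannot be told apart.

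**Figure D1:**
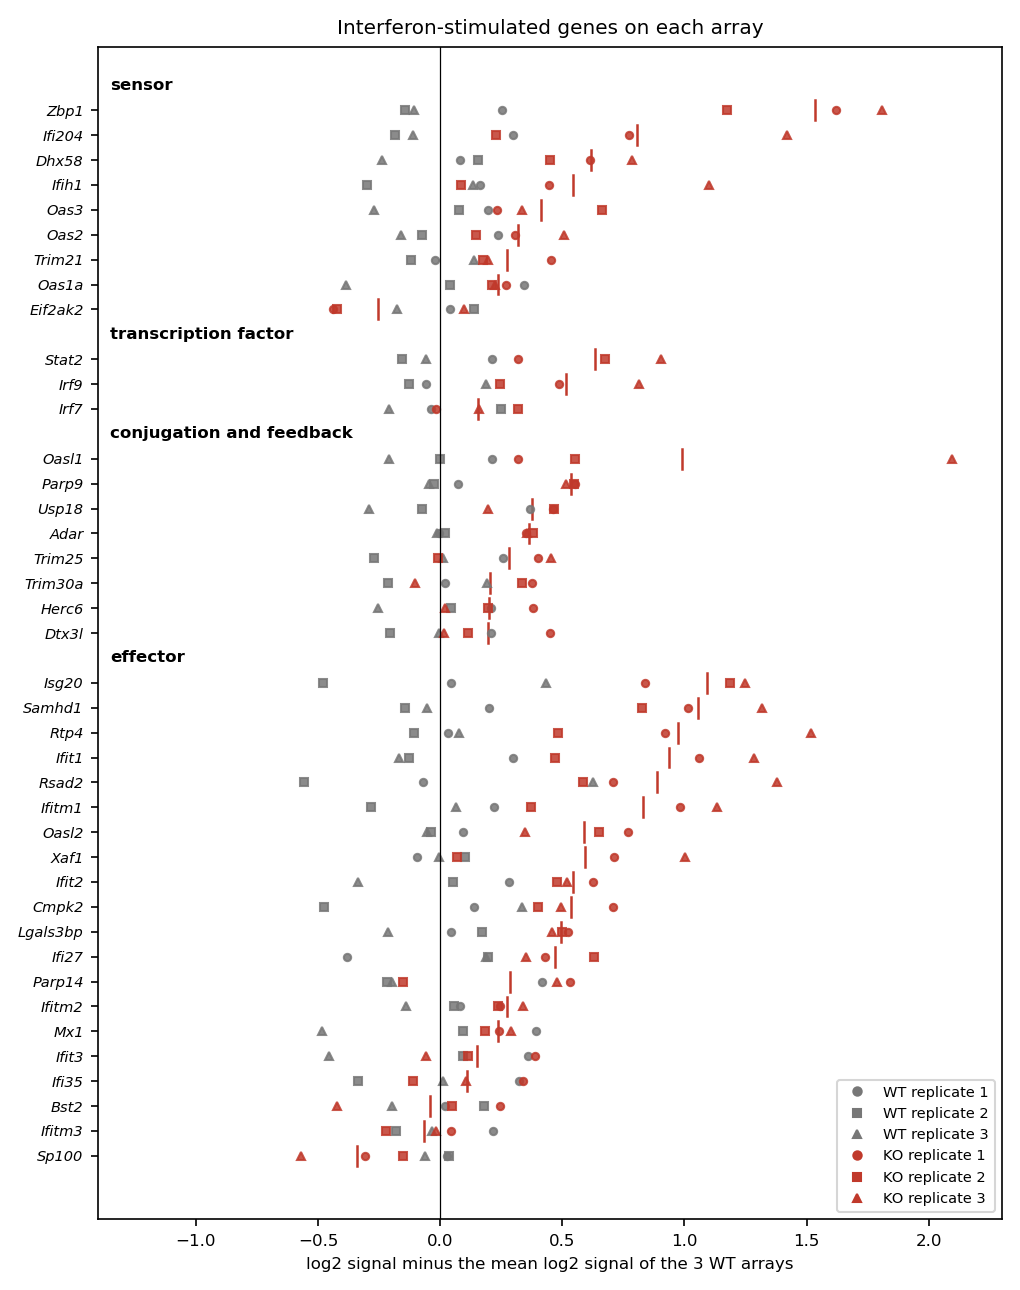
Log2 signal of each of the 40 tested genes on each array minus the mean log2 signal of the 3 WT arrays, by role, with WT arrays in grey, KO arrays in red, the replicate number as the marker shape and the KO mean as a vertical red line. The KO mean lies to the right of 0 for 36 genes, and KO replicate 3 (red triangle) stands far out for Oasl1.

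Among the 9 sensors, 8 read higher in KO and 3 did so at an unadjusted p under 0.05, with a median log2 difference of 0.41. Zbp1, which binds Z-form nucleic acid and can start necroptotic cell death, had the largest difference of all 40 genes. It read 1178, 894 and 919 on the WT arrays and 3044, 2235 and 3469.7 on the KO arrays, a 2.90-fold difference (log2 1.54, SE 0.24, limma adjusted p = 0.130). The lowest KO array thus lay well above the highest WT array. Its other tested probe set read 885, 777 and 682 in WT and 1000.0, 1004 and 974 in KO, again with the groups apart but with a log2 difference of 0.35. The size of the Zbp1 difference therefore depends on the probe set.

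Dhx58, the RIG-I-like receptor LGP2 that tunes sensing by its relatives, read 693, 730.0 and 556 in WT and 1004, 894 and 1129 in KO (log2 0.62, SE 0.21, limma adjusted p = 0.195). A dimmer probe set of this gene had a log2 difference of 0.78 and was also higher on every KO array. Ifih1, the receptor MDA5 for long double-stranded RNA, read 1836, 1332 and 1797 in WT and 2232, 1738 and 3509.5 in KO. Its groups overlapped, and its log2 difference of 0.54 (limma adjusted p = 0.332) became 0.27 without KO replicate 3. Ifi204, a DNA-binding protein of the HIN-200 family, read 1177, 840.4 and 884 in WT and 1636, 1119 and 2556 in KO, with a log2 difference of 0.81 (limma adjusted p = 0.235) and 0.50 without KO replicate 3.

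The oligoadenylate synthetases make the second messenger that activates RNase L. Oas1a read 5862, 4749.5 and 3539 in WT and 5565, 5351 and 5392 in KO, with a log2 difference of 0.23 and a 95% interval of -0.32 to 0.79. Oas2 read 1056 to 1390.2 in WT and 1306 to 1677 in KO (log2 0.32). Oas3, whose promoter stretch is shown above, read 831, 765 and 602 in WT and 853, 1150.0 and 917 in KO (log2 0.41, limma adjusted p = 0.330). Each Oas3 KO array was above each WT array, but the call on KO replicate 3 was Absent, so that Oas3 was detected on the other 5 arrays. Trim21, a cytosolic antibody receptor and ubiquitin ligase, read 1008 to 1205 in WT and 1236 to 1500.2 in KO (log2 0.28), and its dimmer probe set had 0.08 with overlapping groups.

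Eif2ak2, the kinase PKR that halts translation when it binds double-stranded RNA, had probe sets of both signs. The brightest read 223, 238 and 191 in WT and 159.6, 161.5 and 231 in KO (log2 -0.25, and -0.43 without KO replicate 3). Another read 139.9, 122 and 94.6 in WT and 211.5, 161 and 344 in KO, each KO array above each WT array (log2 0.95, limma adjusted p = 0.191). The remaining one had a log2 difference of 0.14. No direction can be given for this gene from these arrays.

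All 3 transcription factors read higher, with differences that were small for Irf7. Stat2, the transactivating subunit of ISGF3, read 87.6, 67.8 and 72.7 in WT and 94.2, 120.7 and 141.6 in KO (log2 0.63, SE 0.23, limma adjusted p = 0.211), and its promoter stretch is among those printed above. These signals are low, although Present on all 6 arrays. A brighter Stat2 probe set, with means of 113.6 in WT and 231.4 in KO, was Present on 0 WT and 2 KO arrays and was not tested. Irf9, the DNA-binding subunit of ISGF3, read 988, 943 and 1173 in WT and 1442, 1222 and 1809.5 in KO (log2 0.52, SE 0.23, limma adjusted p = 0.255). For both genes each KO array lay above each WT array. Irf7, which drives the interferon alpha genes and is itself induced, read 1994, 2429 and 1768 in WT and 2020.0, 2553 and 2282 in KO. Its groups overlapped, and the interval of its log2 difference of 0.15 ran from -0.35 to 0.66.

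Of the 8 tested genes of conjugation and feedback all read higher, with a median log2 difference of 0.32. At an unadjusted p under 0.05, 1 of the 8, Parp9, read higher, a count close to the share of all tested genes (8.88%). Parp9, an inactive ADP-ribosyltransferase that pairs with the ubiquitin ligase Dtx3l, had groups that lay far apart for their spread. It read 2190.3, 2047 and 2016 in WT and 3052, 3041.5 and 2973 in KO (1.45-fold, log2 0.54, SE 0.18, limma adjusted p = 0.192). Dtx3l itself read 1705, 1280.5 and 1473 in WT and 2016, 1599.5 and 1493 in KO on its brightest probe set, with overlapping groups (log2 0.19). On its dimmer probe set it read 966, 992 and 864 in WT and 1404, 1313 and 1385 in KO, with the groups apart (log2 0.54). In the RefSeq table Parp14, Dtx3l and Parp9 are neighbours on chromosome 16.

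Usp18 removes Isg15 from proteins and restrains signalling at the interferon receptor. It read 1891, 1390.1 and 1198 in WT and 2017, 2027 and 1681 in KO, a log2 difference of 0.38 with an interval of -0.18 to 0.93. Oasl1, which in mouse represses translation of Irf7, read 760.1, 656 and 568 in WT and 819.9, 964 and 2805 in KO. Its 3 KO arrays lay above WT, yet KO replicate 3 set most of the difference, which was 0.99 on the log2 scale with all arrays (SE 0.45, limma adjusted p = 0.268) and 0.44 without it. Adar, which edits adenosine to inosine in double-stranded RNA, read 908, 924 and 904 in WT and 1163, 1187 and 1168 in KO, a narrow but complete separation (log2 0.36, SE 0.18, limma adjusted p = 0.291). Its other tested probe sets had log2 differences of 0.36 and -0.48, both with overlapping groups.

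The remaining genes of this role were ubiquitin or Isg15 ligases. Trim25, a ubiquitin ligase linked to RIG-I, had log2 differences of 0.28, 0.30 and 0.98 on its probe sets, from the brightest to the dimmest. On the dimmest it read 497, 445.5 and 428 in WT and 743, 779 and 1256 in KO, while on the brightest the groups overlapped. Herc6, the main Isg15 ligase in mouse, read 704 to 969 in WT and 849 to 1092 in KO on its brightest probe set (log2 0.20) and had 0.68 on a dimmer one where the groups were apart. Trim30a, a mouse regulator of Toll-like receptor signalling, had 0.20 and 0.54 on its probe sets, both with overlapping groups.

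The 20 tested effectors had a median of 0.51 for the log2 difference; 17 read higher and 3 lower. Unadjusted, 9 passed at p under 0.05, all of them higher. Isg20 and Samhd1 had the largest differences, followed by Rtp4 and Ifit1. Samhd1, which hydrolyses deoxynucleoside triphosphates, read 4299.5, 3386 and 3601 in WT and 7564, 6644 and 9328.5 in KO (2.08-fold, log2 1.05, SE 0.22, limma adjusted p = 0.140). Isg20, an RNA exonuclease, read 1831, 1275 and 2399.7 in WT and 3178, 4046.5 and 4217 in KO (2.13-fold, log2 1.09, SE 0.28, limma adjusted p = 0.159). The groups were apart for both genes, whose promoter stretches above hold the gamma-activated sequence. Of the other Samhd1 probe sets, 3 had log2 differences of 0.52 to 0.78 and 1 had -0.38, the last with 1706, 430.5 and 1259 in WT and 705, 625 and 945 in KO.

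Rsad2, or viperin, makes a chain-terminating ribonucleotide. Its brightest probe set read 9532, 6790.3 and 15440.4 in WT and 16308, 14986 and 25975 in KO, with overlapping groups (log2 0.89, SE 0.36, limma adjusted p = 0.232). A dimmer probe set read 470.3, 612 and 688 in WT and 1921, 1822 and 3146 in KO, with the groups far apart (log2 1.93, SE 0.28, limma adjusted p = 0.124), and the remaining one had 1.02. All 3 thus leaned to KO, by amounts from 0.89 to 1.93. Cmpk2, a nucleotide kinase encoded next to Rsad2 on chromosome 12, read 1068, 697 and 1224.5 in WT and 1582, 1281 and 1364 in KO (log2 0.53, limma adjusted p = 0.289), with the groups apart.

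The Ifit proteins bind viral RNA, and Ifit1 recognises caps that lack a methyl group. Ifit1 read 2749, 2044 and 1988 in WT and 4654, 3095 and 5450.0 in KO (1.92-fold, log2 0.94, SE 0.27, limma adjusted p = 0.171). Ifit2 read 2604, 2221 and 1693 in WT and 3300.2, 2983 and 3068 in KO (1.46-fold, log2 0.54, SE 0.22, limma adjusted p = 0.240). In both, every KO array was above every WT array. Ifit3 read 2002, 1665 and 1138 in WT and 2043, 1687 and 1500.0 in KO, overlapping throughout (log2 0.15, interval -0.48 to 0.77, and -0.08 without WT replicate 3). The promoter stretches of both Ifit1 and Ifit3 shown above hold 2 matches of the response element's core.

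**Figure D2:**
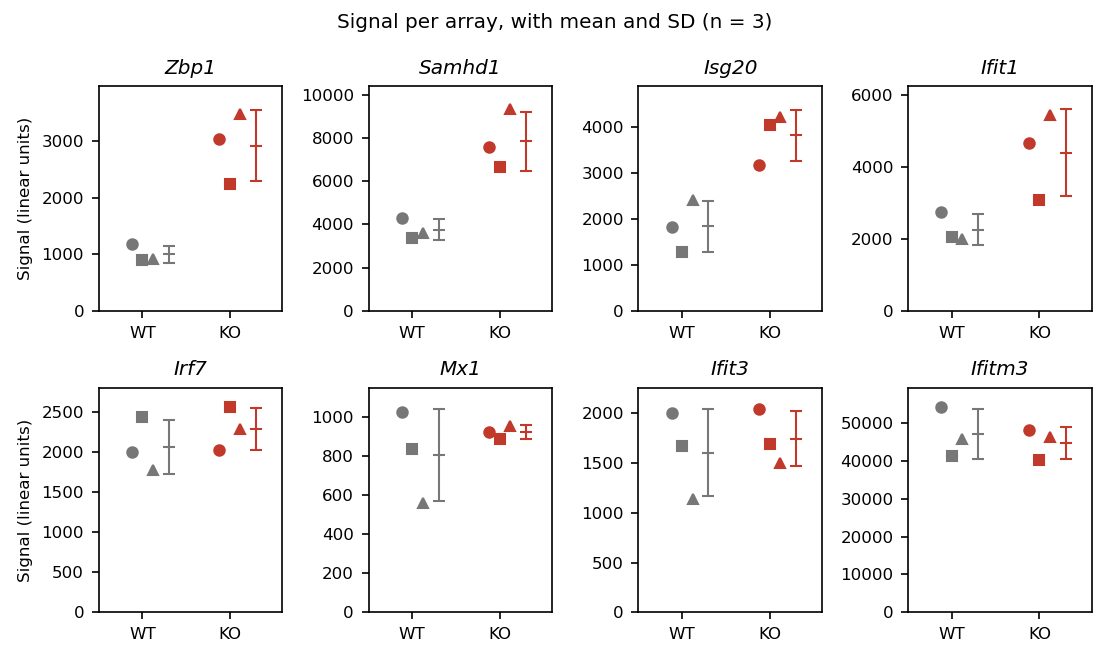
Signal on each array (linear units from 0, a scale per gene) of 4 genes whose groups did not overlap in the top row and 4 whose groups overlapped in the bottom row, with the mean and SD of 3 arrays beside the points and the marker shapes as in the plot by array. Zbp1 goes from 997 ± 157 in WT to 2916 ± 627 in KO, while Ifitm3 reads 47020 ± 6605 and 44790 ± 4212.

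The Ifitm proteins block the fusion of viral and host membranes. Ifitm1 read 24009.7, 16942.5 and 21553 in WT and 40725, 26694 and 45248 in KO (1.78-fold, log2 0.83, SE 0.27, limma adjusted p = 0.185). Ifitm2 read 23382 to 27252 in WT and 30355 to 32593 in KO (1.21-fold, log2 0.27, limma adjusted p = 0.414). The groups did not overlap for either. Ifitm3 read 54202, 41211 and 45636 in WT and 48158, 40068 and 46148 in KO. Its log2 difference of -0.07 (interval -0.55 to 0.42) turned to 0.02 with arrays scaled to a common 75th percentile and to 0.14 after quantile normalization, so that no direction can be given. Ifitm2, Ifitm1 and Ifitm3 are neighbours on chromosome 7.

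Mx1, a dynamin-like GTPase, was detected on all arrays but did not separate the groups. It read 1024, 833 and 558 in WT and 922, 886 and 954 in KO (log2 0.24, interval -0.37 to 0.85, and -0.01 without WT replicate 3). Bst2, the tetherin that holds budding virus at the cell surface, read 2411, 2689.6 and 2072 in WT and 2820.1, 2456 and 1776 in KO. Its log2 difference was -0.04 (interval -0.61 to 0.53), and it turned to 0.04 with 75th percentile scaling and to 0.15 without KO replicate 3. For these genes a p that misses the threshold does not show that the groups are alike, and the intervals allow differences of over 1.5-fold.

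Rtp4, a receptor-transporting protein induced by interferon, read 4138, 3759 and 4273 in WT and 7669, 5659.9 and 11597 in KO (1.96-fold, log2 0.97, SE 0.29, limma adjusted p = 0.171). Oasl2, an oligoadenylate synthetase relative with ubiquitin-like domains, read 1982.5, 1805 and 1785 in WT and 3166, 2916 and 2360.4 in KO (1.51-fold, log2 0.59, limma adjusted p = 0.197). Lgals3bp, a secreted glycoprotein that binds galectin 3, read 2694, 2939.7 and 2254 in WT and 3758, 3688 and 3589.5 in KO (1.41-fold, log2 0.49, limma adjusted p = 0.231). In all 3 genes the KO arrays lay above the WT arrays. Ifi27, a small membrane protein, also had its groups apart on the brightest probe set (log2 0.47) but not on the other (0.21), while Xaf1, an antagonist of the apoptosis inhibitor XIAP, overlapped and had 0.59, or 0.39 without KO replicate 3, and 0.36 on its other probe set. The dimmer probe set of Rtp4 had 0.65, with its groups apart.

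Parp14, an ADP-ribosyltransferase, had a log2 difference of 0.29 with overlapping groups. Ifi35, a partner of Nmi, had 0.11 on its brightest probe set, which became -0.06 without WT replicate 2, and 0.73 and 0.01 on the others. Sp100, a component of PML nuclear bodies, was the only tested member whose KO arrays all read below WT. Its brightest probe set read 1064, 1070.2 and 999.5 in WT and 845, 939 and 704 in KO (log2 -0.34, SE 0.20, limma adjusted p = 0.351). The dimmer one read 269, 331 and 435 in WT and 474, 584 and 633 in KO (log2 0.73, SE 0.25, limma adjusted p = 0.195), so that both separated the groups completely and in opposite directions.

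Probe sets of a gene can report different transcript ends or isoforms, and 16 of the 40 genes had more than 1 tested probe set. In 12 of these all probe sets read higher in KO, and in 4, Eif2ak2, Adar, Sp100 and Samhd1, the signs differed. Over all 64 tested probe sets, 58 read higher in KO, 26 did so at an unadjusted p under 0.05 and 0 read lower at that threshold. Of all 22063 tested probe sets, 46.6% read higher, 9.99% did so at that threshold and 10.2% read lower at it. When a gene's probe sets were averaged, Eif2ak2 had a log2 difference of 0.28 and Sp100 0.19, both of opposite sign to the values above. The position of each probe set on its transcript was not used here.

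**Figure D3:**
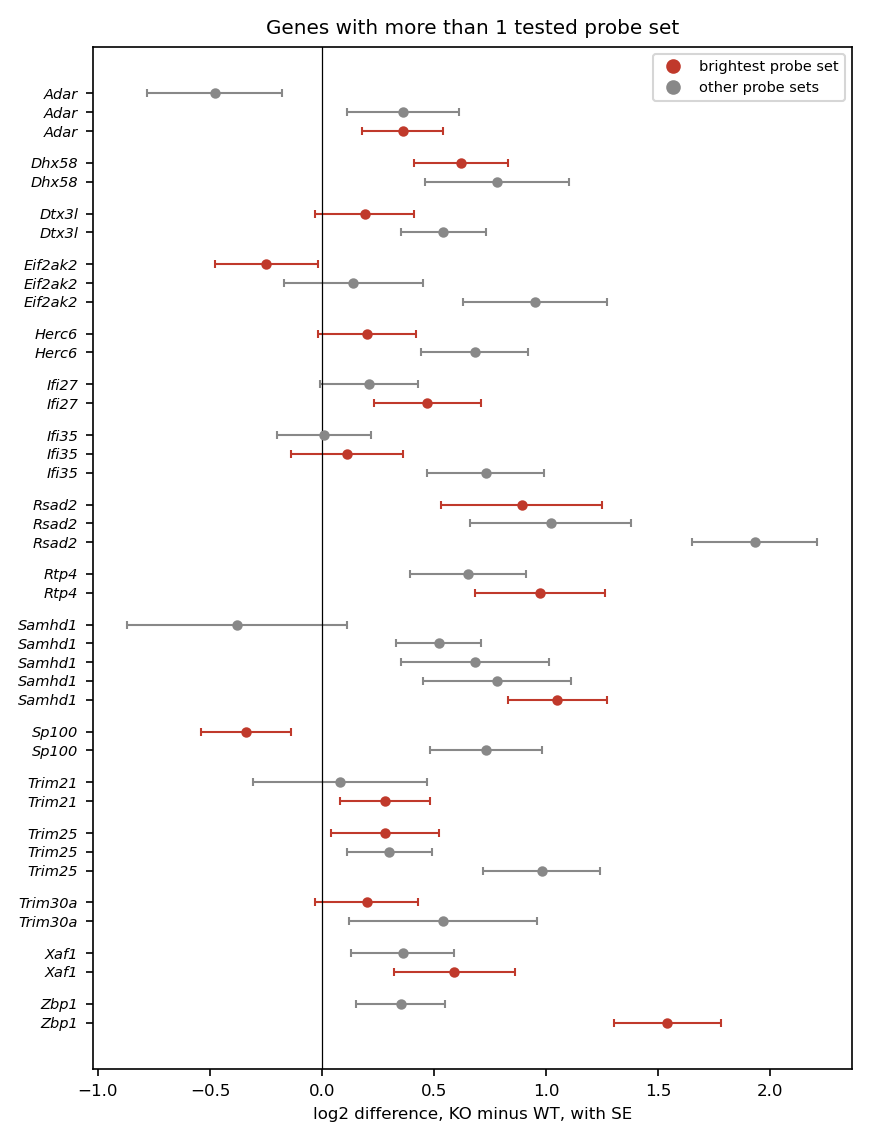
Log2 difference between KO and WT with its SE for every tested probe set of the 16 genes that had more than 1, with the brightest probe set of each gene in red and the others in grey. The probe sets of Sp100 lie on either side of 0, at -0.34 and 0.73, and those of Rsad2 all lie to the right, at 0.89, 1.02 and 1.93.

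Ratios of a pair of genes on the same array do not depend on how the array was scaled. They were taken for 8 pairs of related or neighbouring genes, some of which were picked after their values had been seen, and the level of such a ratio has no meaning of its own because probe sets differ in brightness. The ratio of Ifitm1 to Ifitm3 was 0.443, 0.411 and 0.472 in WT and 0.846, 0.666 and 0.981 in KO, 1.86-fold higher. The ratio of Ifit1 to Ifit3 was 1.37, 1.23 and 1.75 in WT and 2.28, 1.84 and 3.63 in KO, 1.73-fold higher, and that of Ifit2 to Ifit3 was 1.31-fold higher. In these 3 pairs each KO array lay above each WT array. The denominators Ifit3 and Ifitm3 had log2 differences of 0.15 and -0.07, so these ratios largely repeat the differences of Ifit1, Ifit2 and Ifitm1. No p-value is given for the ratios, because some pairs were picked after their values had been seen. The ratios of Ifit1 to Ifit2, Ifitm1 to Ifitm2, Ifitm2 to Ifitm3, Rsad2 to Cmpk2 and Parp9 to Dtx3l overlapped between the groups.

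**Figure D4:**
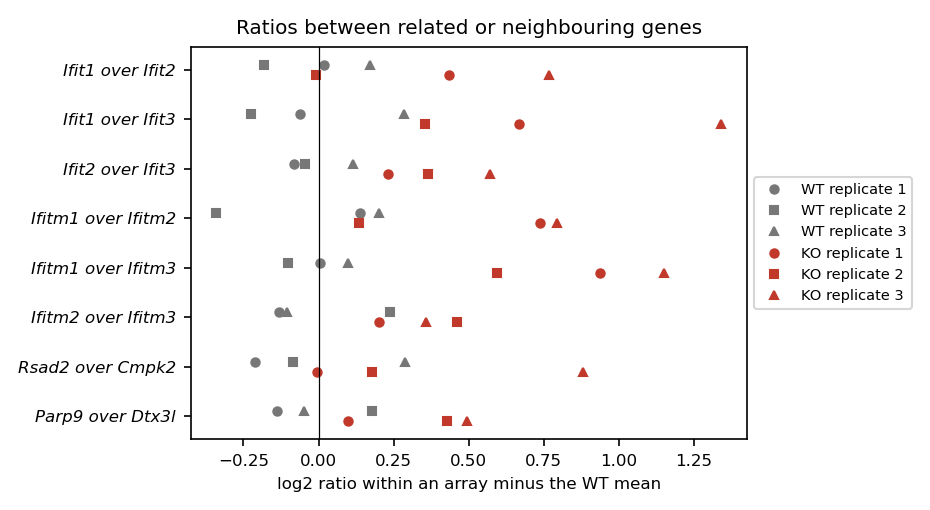
Log2 ratio of the signals of a pair of genes on the same array minus its mean over the 3 WT arrays, for 8 pairs, with WT arrays in grey and KO arrays in red. The groups are apart for Ifit1 over Ifit3, Ifit2 over Ifit3 and Ifitm1 over Ifitm3, where the KO ratios are 1.73-fold, 1.31-fold and 1.86-fold those of WT.

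Upstream of these genes, the interferon alpha transcripts that were measured were not detected, and interferon beta was detected on every KO array. Ifnb1, interferon beta, read 63.3, 26.9 and 46.2 in WT, where it was Present on 1 array, and 142.5, 98.2 and 3904 in KO, where it was Present on all 3. KO replicate 3 thus stood far above every other array, and the log2 difference of 3.15 (SE 1.28, limma adjusted p = 0.234) was 1.47 without it. Ifnb1 met the detection filter only with KO arrays counted. Ifna1, Ifna2, Ifna4, Ifna5, Ifna9, Ifna11 and Ifnab, of the interferon alpha family, were Absent on all arrays. Ifna6, Ifna7, Ifna12, Ifna13, Ifna14, Ifna15 and Ifna16 had no probe set of their own and were not measured. Of the receptor chains, Ifnar1 read 689 to 953 in WT and 825 to 1107 in KO (log2 0.21, limma adjusted p = 0.603). Ifnar2 read 1994, 2442 and 1634 in WT and 2412, 3577 and 4635 in KO on its brightest probe set, with overlapping groups, and its 3 probe sets had log2 differences of 0.78, 0.70 and 0.56.

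Of the 14 tested genes of interferon induction and signalling, 11 read higher and 3 lower, the median of the log2 differences was 0.27, and 0 were called. Unadjusted, 2 were higher and 1 lower at p under 0.05, counts close to the shares of all tested genes (8.88% and 11.8%). Ikbke, a kinase that activates Irf3 and Irf7, read 853, 522 and 682 in WT and 1227, 1055.5 and 1363 in KO (log2 0.85, limma adjusted p = 0.170), and Irf5, a transcription factor of myeloid cells, had 0.62 (limma adjusted p = 0.195). Mavs, the mitochondrial adaptor of RIG-I and MDA5, read 1687, 874 and 1179.8 in WT and 856, 721 and 416 in KO (log2 -0.92, limma adjusted p = 0.221). Every KO array lay above WT for Ikbke and Irf5 and below WT for Mavs. Socs3, a feedback inhibitor of cytokine receptors, had 0.84 with all arrays and 0.43 without KO replicate 3. The receptor kinases Jak1 and Tyk2 had 0.03 and 0.20, and Irf3 had -0.15.

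Genes known as responders to interferon gamma were measured on the same arrays, and their values are set beside those above without a test. All 17 tested read higher in KO, 15 at an unadjusted p under 0.05 and 0 at an adjusted p under 0.05, with a median log2 difference of 1.24 against 0.44 for the 40 antiviral genes. Without KO replicate 3 these medians were 1.19 and 0.38. Socs1, among the 17, was Present on 1 WT and 3 KO arrays and met the detection filter only with KO arrays counted. Gbp2, a guanylate-binding GTPase, read 4594, 4054 and 3670.0 in WT and 13485, 10931 and 13524 in KO (log2 1.62, limma adjusted p = 0.107). Cxcl9, a chemokine for T cells, had 2.34, Psmb9, an immunoproteasome subunit, 1.24, and Iigp1, an immunity-related GTPase, 2.00. Ifng itself was Present on 2 WT and 3 KO arrays, so that it too met the detection filter only with KO arrays counted. It read 45.4, 76.5 and 82.3 in WT and 446, 503.5 and 546 in KO (log2 2.91, limma adjusted p = 0.0479), and is 1 of the 4 genes called over all. That call was lost with 75th percentile scaling (0.0697), quantile normalization (0.0672), no detection filter (0.197) or the replicate block (0.187), and whenever an array was left out (0.0762 to 0.208, limma adjusted p throughout). Many genes answer to both kinds of interferon, and the part of each in the differences above was not tested.

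**Figure D5:**
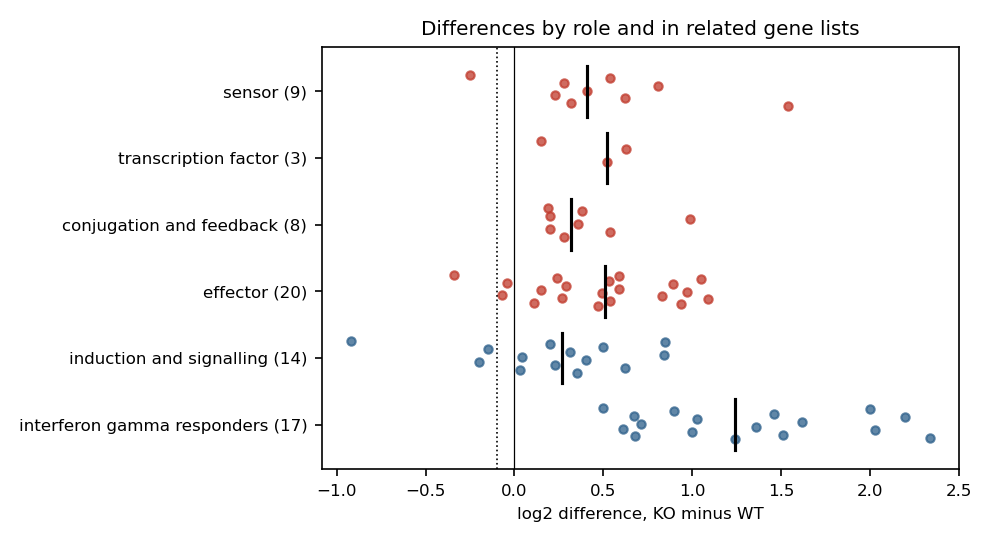
Log2 difference between KO and WT of each tested gene by role (red) and in the lists of interferon induction and signalling and of interferon gamma responders (blue), with the number of genes in brackets, the median of each list as a black bar and the median of all tested genes, -0.10, as a dotted line. The median is 0.41 for sensors, 0.51 for effectors and 1.24 for the interferon gamma responders.

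Markers of several cell types read higher in KO on the same arrays. Of 8 tested T cell markers 8 were higher, 5 of them with an unadjusted p under 0.05, and their summed signal was 2165 to 5364 in WT and 7223 to 9201 in KO, with Cd8b1, a CD8 chain, at a log2 difference of 2.58. Cd3e, among the 5, was Present on 1 WT and 3 KO arrays and met the detection filter only with KO arrays counted. Of 8 NK cell markers 6 were higher, and the sums were 6587 to 8133 and 9197 to 15748. Gzmb and Gzma, which hold a large part of these sums (WT means 2502 and 1404), had log2 differences of 0.45 and 0.20 with overlapping groups. Klrc1, an inhibitory receptor that CD8 T cells also carry, had 1.86 and was called (limma adjusted p = 0.0479, range over the alternatives 0.0222 to 0.208), Klrk1, Prf1 and Klrd1 had 1.32, 1.13 and 1.01, while Ncr1, an activating receptor typical of NK cells, and Eomes, a transcription factor, had -0.28 and -0.08 with overlapping groups. Of 11 macrophage markers, a cell type that responds strongly to interferon, 10 were higher and 5 were so at an unadjusted p under 0.05. The macrophage sums were 102992 to 137051 in WT and 143723 to 223979 in KO, with Itgam, an integrin chain, at 1.24 and Aif1, an actin-binding protein, at 1.11. By contrast, the macrophage markers Adgre1, Csf1r and Mertk had 0.07, 0.20 and -0.12, with overlapping groups. Of 4 tested markers of conventional dendritic cells 3 were higher, with sums of 1894 to 1947 and 4050 to 4574. Itgax, an integrin chain that macrophages also carry, made up most of these sums (1220 ± 127 in WT and 3300 ± 155 in KO, SD, n = 3), Flt3 read lower (-0.31), Ccr7 overlapped, and Zbtb46, Xcr1, Clec9a and Cd209a did not enter the test.

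Plasmacytoid dendritic cells are the classical source of interferon alpha. Of 8 tested markers of these cells, among them Bst2, 5 were higher and 3 lower, with sums of 8416 to 13660 in WT and 6945 to 10470 in KO. Tcf4, a transcription factor, read 3002, 2693 and 2755 in WT and 2286, 1370 and 1116 in KO (log2 -0.89, limma adjusted p = 0.185). Irf8, also listed as an interferon gamma responder, had 0.61 (limma adjusted p = 0.202). Every KO array lay below WT for Tcf4 and above WT for Irf8. The highest WT sum was that of WT replicate 3, where Ly6d, a surface protein also found on B cells, read 5174 against 119.3 and 142 on the other WT arrays. The defining marker Siglech was Present on 3 of the 6 arrays and read 119.7 ± 24.6 and 132 ± 10.3 (SD, n = 3). All 8 tested neutrophil markers and all 7 endothelial markers were higher, with neutrophil sums of 71974 to 278442 and 162499 to 220200 and endothelial sums of 647 to 840 and 1239 to 1739. Among them, Cxcr2 (neutrophil), Pecam1 and Tie1 (endothelial) were Present on 0 WT and 3 KO arrays. They entered the test only through the KO arrays, so their place in these counts carries little weight. The endothelial marker Kdr did not enter the test. B cell markers were higher in 3 of 5, with sums of 1342 to 37804 and 2678 to 21618. WT replicate 3 and KO replicate 2 stood apart in the neutrophil and B cell lists. The granule protein gene Ngp had signals of 51534.5 and 40685 on these arrays and of 1055 to 19159 elsewhere, and the antibody chain gene Ighm had 27949.5 and 16791 there and 352 to 1062 elsewhere. Of 10 fibroblast markers 5 were higher and 5 lower, with sums of 65980 to 68321 in WT and 43339 to 57942 in KO, and all 10 were detected on every array. Col3a1 made up most of these sums (46950 ± 4247 in WT and 31780 ± 6782 in KO, SD, n = 3). Every KO array lay below WT for Pdgfra, Dcn and Dpt (-1.13, -1.08 and -0.94) but above WT for Col1a1 and Col1a2 (1.70 and 1.27). Without KO replicate 3 these values were -0.93, -0.94 and -0.88 for Pdgfra, Dcn and Dpt, and 1.31 and 0.61 for Col1a1 and Col1a2. Epithelial tumour markers were represented by Cdh1, Krt7, Krt8 and Krt18, of which 3 were lower, with sums of 11422 to 15276 and 2222 to 6486, and Epcam, Krt19, Sftpc and Nkx2-1 were not detected on any array. The part of cell composition, of RNA quality and of the array with its own batch number in the differences of the interferon-stimulated genes was not tested.

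The authors' deposited table lists a signed fold for 1554 probe sets, 1488 positive and 66 negative, with no value smaller than 2.401 in size. It holds 1 probe set of these genes, the dimmer Rsad2 probe set described above, at -2.535 in the authors' deposited table, where the ratio of mean signals of KO to WT was 3.89 here. The signs in the authors' deposited table matched the direction of KO minus WT for 0 of 1554 probe sets, and neither labels nor headers say which group it takes as the numerator.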

How the data were processed

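Total RNA of 6 mice was hybridised to 1 array each. The deposited array files give, for 45101 probe sets, the signal intensity on a linear scale with its detection call. Per the file headers and the expression report deposited for 1 array, signals were scaled to a target of 500, and the trimmed mean was 500 on every array. The deposited value table equalled them in 270606 of 270606 cells. The authors' deposited table of signed folds, used as a score, states neither method nor direction. The files name no genome build.

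The log2 of the signals as given was compared with limma 3.58.1 in R 4.3.3, without covariates, over the 22063 non-control probe sets Present on at least 3 arrays, with two-sided tests and Benjamini-Hochberg adjustment over all of them. A gene was represented by its tested probe set of highest mean, and its other tested probe sets are given beside it. Log2 differences are KO minus WT, folds are taken from them, intervals are limma's 95% intervals, and errors are SD or limma's SE. Of the probe sets 34958 had a single symbol, 932 several and 9211 none, and 34754 matched the RefSeq table by gene ID, with 0 symbols changed.

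The members, their roles and all lists were chosen with earlier results of these data known. Named are all members, genes among the 4 of smallest p of each list, and ligands and receptor chains. Others were chosen after their values were seen. Same-numbered WT and KO arrays deviated together at r = 0.157, 0.0254 and -0.101, so the numbers were not taken as pairs. The alternatives were another scaling or normalization, other detection filters, a replicate block, other variance models, array weights, an added offset of 50, averaging the probe sets of a gene and leaving out each array.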

Additional observations from a re-analysis of the deposited data

How the results depend on the processing

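In each alternative 0 of the antiviral genes were called by limma at an adjusted p under 0.05, with the smallest adjusted p between 0.0517 and 0.358. The number higher at an unadjusted p under 0.05, 14 in the report, was 13 to 18 in the alternatives that kept all arrays and a detection filter. It was 9 with no filter on Present calls, where 41 genes and more dim probe sets were tested, and 7 to 13 when an array was left out. With the replicate number as a block it was 14, 13 of them shared with the report, so the block changed which genes passed but not their number. The median log2 difference, 0.44, was 0.52 with 75th percentile scaling, which moved the median of all genes from -0.10 to -0.02, and 0.36 to 0.50 when an array was left out. Some single genes changed sign. Bst2 had 0.04 with 75th percentile scaling and 0.15 with array weights, Ifitm3 had 0.02 with 75th percentile scaling and 0.14 after quantile normalization, and Eif2ak2 and Sp100 had 0.28 and 0.19 as the mean of their probe sets. When an array was left out, the log2 difference ranged from -0.19 to 0.15 for Bst2, from -0.16 to 0.04 for Ifitm3, from -0.06 to 0.27 for Ifi35, from -0.08 to 0.33 for Ifit3 and from -0.01 to 0.43 for Mx1. The cause of these changes was not tested. Depth is not defined for arrays, and signals below detection limit Mx2 and the interferon alpha genes that were measured.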
